A study of Mus musculus with 3 samples.

Results

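The PI3K, mTOR and Foxo axis was examined as 9 genes fixed by name, all of which were present among the 16129 genes of the deposited expression table. They comprised 4 protein or lipid kinases (Pik3cd, Akt1, Akt2 and Mtor), 2 partner subunits of kinases (Pik3r1 and Rptor), 1 lipid phosphatase (Inpp5d) and 2 transcription factors (Foxo1 and Foxo3). The measured cells were type 2 innate lymphoid cells (ILC2s), tissue lymphocytes that lack antigen receptors and secrete type 2 cytokines, sorted from lungs of wild type mice that had been given the alarmin IL-33 in vivo. The strain, age, number of animals, sorting markers and dose are not given in the labels. The 3 libraries, numbered 1 to 3, carried the same labels and formed 1 group, so every comparison below is between genes within a library, or between these libraries. No untreated library was analysed here and no effect of IL-33 can be read from any value. The labels do not say whether the libraries stem from different animals, and their spread may be technical only.

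Class I PI3K makes the membrane lipid PIP3 when surface receptors are engaged. PIP3 recruits the kinase Akt, which activates the growth-controlling complex mTORC1 and phosphorylates the Foxo factors, and phosphorylated Foxo is held in the cytoplasm by 14-3-3 proteins and cannot act on its genes. Lipid phosphatases such as SHIP1, encoded by Inpp5d, remove phosphates from PIP3. In lymphocytes this axis links cytokine and costimulatory signals to growth, and Foxo factors sustain genes of quiescence, homing and IL-7 responsiveness. Most of this control acts on lipids and on phosphorylation, which transcript levels do not measure.

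All 9 genes were expressed, and their levels spanned about an order of magnitude. The kinase gene Akt1 was the highest and the kinase gene Mtor the lowest, with the phosphatase gene Inpp5d second. Each of the 9 reached 1 TPM (a level scaled for library depth and transcript length) in every library, where 67.3% of listed genes did. All 9 averaged 10 TPM or more (51.2% of listed genes), and 4 averaged 100 TPM or more (10.3% of listed genes). The median of the 9 mean levels was 60.2 TPM, beside 11.2 TPM over all listed genes and 28.2 TPM over genes that reached 1 TPM in every library. Genes chosen for a known signalling pathway are not a random draw, and no test was made of this difference.

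The sequences upstream of the 2 highest and the 2 lowest genes are shown so that the ends of this range can be compared at their promoters. Each is the 250 bases before an annotated RefSeq start in GRCm38.p6, 5′ to 3′ on the gene's own strand. Capitals mark matches, on either strand, to any of 4 short motifs. The FoxO element was searched as GTAAACA. The box bound by NF-Y was searched as CCAAT. The GC box, bound by Sp factors, was searched as GGGCGG, and adjoining matches in the second Akt1 window overlap. The TATA box was searched as TATAAA. Akt1 has 2 annotated start windows, at chr12:112674885-112675134 and chr12:112674277-112674526, both on the minus strand. Inpp5d has 1 at chr1:87620062-87620311, Foxo1 has 1 at chr3:52268087-52268336 and Mtor has 1 at chr4:148448332-148448581, all on the plus strand.
Akt1, window 1: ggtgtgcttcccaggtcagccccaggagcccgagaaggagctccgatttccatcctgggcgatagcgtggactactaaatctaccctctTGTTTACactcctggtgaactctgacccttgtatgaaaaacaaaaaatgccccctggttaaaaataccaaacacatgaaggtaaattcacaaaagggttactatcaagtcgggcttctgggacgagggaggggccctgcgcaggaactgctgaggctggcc
Akt1, window 2: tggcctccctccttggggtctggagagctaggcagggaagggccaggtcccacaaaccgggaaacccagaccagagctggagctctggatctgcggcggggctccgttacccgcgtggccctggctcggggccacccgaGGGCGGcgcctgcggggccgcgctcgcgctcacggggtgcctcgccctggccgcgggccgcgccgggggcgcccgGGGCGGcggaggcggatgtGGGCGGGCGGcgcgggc
Inpp5d: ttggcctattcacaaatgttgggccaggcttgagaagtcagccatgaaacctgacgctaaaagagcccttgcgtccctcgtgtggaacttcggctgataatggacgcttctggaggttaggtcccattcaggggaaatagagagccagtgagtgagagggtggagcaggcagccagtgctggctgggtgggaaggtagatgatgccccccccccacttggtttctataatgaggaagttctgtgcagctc
Foxo1: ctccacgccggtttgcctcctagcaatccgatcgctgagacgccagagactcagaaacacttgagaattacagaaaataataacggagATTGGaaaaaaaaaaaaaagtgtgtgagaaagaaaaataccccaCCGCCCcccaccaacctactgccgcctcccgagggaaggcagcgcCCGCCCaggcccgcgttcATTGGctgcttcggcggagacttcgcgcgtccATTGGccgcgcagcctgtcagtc
Mtor: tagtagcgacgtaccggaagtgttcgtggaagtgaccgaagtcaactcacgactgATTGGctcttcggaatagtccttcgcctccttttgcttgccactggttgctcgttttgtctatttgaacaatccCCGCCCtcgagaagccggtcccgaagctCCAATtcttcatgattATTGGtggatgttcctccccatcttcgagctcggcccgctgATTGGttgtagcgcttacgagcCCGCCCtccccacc

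Akt1 window 2 stood apart in base composition from the other 4 windows shown. It was 78.4% G and C and held 4 GC boxes, whereas Akt1 window 1 was 52% G and C and held none. Of the windows not shown, Pik3r1 window 1 (4 GC boxes) and the Foxo3 window (5 GC boxes) were each 76.4% G and C. Inpp5d, at 54.4% G and C, held none of the 4 motifs. Mtor held 4 CCAAT boxes and 2 GC boxes, and Foxo1 held 3 CCAAT boxes and 2 GC boxes. Of the 16 start windows of the 9 genes, 1 held the FoxO element, namely Akt1 window 1, where it begins 161 bases before the start. The FoxO element occurred in 3.17% of all 32851 windows of this length, the CCAAT box in 33.8%, the GC box in 32.7% and the TATA box in 12.4%. In the 11201 windows of genes that reached 1 TPM in every library, as all 9 did, these shares were 2.22%, 36%, 57.6% and 6.22%. Among the 16 windows, 4 held a CCAAT box, 8 a GC box and 1 a TATA box, and several belong to the same gene. A match of letters is not evidence of binding, and which start was used in these cells was not measured.

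Pik3cd encodes the delta catalytic subunit of class I PI3K, the form enriched in leukocytes. It stood at 118.94, 121.97 and 125.39 TPM in libraries 1, 2 and 3, a mean of 122.1 ± 3.23 TPM (SD, n = 3). The libraries lay close together, with 91.9% of listed genes below this mean. Pik3cd (Entrez gene 18707) lies on chromosome 4 from 149649168 to 149702566 in GRCm38.p6, the build named in the submitters' processing notes.

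Among class I catalytic subunits Pik3cd took the largest share of transcripts, 47.9 ± 0.52% of their summed TPM. Pik3cg, the gamma form coupled to G protein receptors, took 34.9 ± 0.707%, and the broadly expressed Pik3ca and Pik3cb took 14.6 ± 0.243% and 2.56 ± 0.119%. Pik3cd exceeded Pik3cg (88.8 ± 1.54 TPM) by 0.46 ± 0.044 on the log2(TPM + 1) scale (SD, n = 3), with ranges that did not overlap. The leukocyte-enriched delta and gamma forms were therefore the 2 highest of the 4 genes in each library.

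Pik3r1 encodes the p85 alpha regulatory subunit, which stabilises the catalytic subunit and docks it to phosphorylated receptors. It stood at 57.73, 61.75 and 61.04 TPM in libraries 1, 2 and 3 (mean 60.2 ± 2.15 TPM). Library 1 was the lowest and the other two lay within 1 TPM of each other. Pik3cd exceeded Pik3r1 by 1.01 ± 0.033 on the log2(TPM + 1) scale, which is 2.01-fold on the TPM + 1 scale, in 3 of 3 libraries. Pik3r2, a second p85 gene, was at 28.3 ± 1.57 TPM, and Pik3r5, a partner of the gamma subunit, at 12.1 ± 0.33 TPM. Pik3r3 and Pik3r6 were each at 0.16 TPM on average and below 1 TPM in every library. Pik3r1 (18708) lies on chromosome 13 from 101680761 to 101768217.

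Inpp5d encodes SHIP1, a phosphatase of blood cells that removes the 5-phosphate of PIP3. It stood at 149.89, 157.22 and 162.36 TPM in libraries 1, 2 and 3, a mean of 156 ± 6.27 TPM. Library 3 was the highest and library 1 the lowest, and every library lay above every value of Pik3cd. Pik3cd was lower than Inpp5d by a log2(TPM + 1) difference of -0.35 ± 0.021. Inpp5d (16331) lies on chromosome 1 from 87620312 to 87720510.

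Inpp5d was also the highest of 10 phosphoinositide phosphatase genes, of which 9 reached 1 TPM in every library, beside 67.3% of all listed genes. Inppl1, which encodes the related SHIP2, was at 18.3 ± 0.93 TPM. Inpp4b, which acts on the product of SHIP1, was at 101 ± 2.93 TPM, Inpp5k at 82.4 ± 3.73 TPM and Inpp5b at 62.4 ± 1.59 TPM. Inpp5j was below 1 TPM in every library.

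Akt1 and Akt2 encode the serine and threonine kinases that carry the PIP3 signal onward. Akt1 stood at 190.41, 198.52 and 202.61 TPM in libraries 1, 2 and 3 (mean 197 ± 6.21 TPM), above 95.5% of listed genes. Akt2 stood at 101.94, 106.57 and 107.14 TPM (mean 105.2 ± 2.85 TPM). Both were lowest in library 1, and no library of Akt2 came near any of Akt1. Akt1 exceeded Akt2 by 0.90 ± 0.012 on the log2(TPM + 1) scale (1.87-fold), the most even across libraries of the 10 differences examined. A share of 9.76% of the 50-base words of Akt2 transcripts in GENCODE M21 also occurs in the pseudogene Akt2-ps, so its reads are slightly less certain, whereas Akt1 shared 0%. Akt1 (11651) lies on chromosome 12 from 112653821 to 112674884 and Akt2 (11652) on chromosome 7 from 27591552 to 27640826.

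The direct regulators of Akt were lower than Akt1 and Akt2. Pdpk1, which phosphorylates the activation loop of Akt, was at 48.9 ± 0.422 TPM. The Akt phosphatase genes Phlpp2 and Phlpp1 were at 6.19 ± 0.124 and 3.62 ± 0.197 TPM. Sgk1 and Sgk3, kinases that also phosphorylate Foxo factors, were at 4.64 ± 0.0954 and 1.497 ± 0.321 TPM. All 8 genes of this list reached 1 TPM in every library, beside 67.3% of all listed genes.

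**Figure D1:**
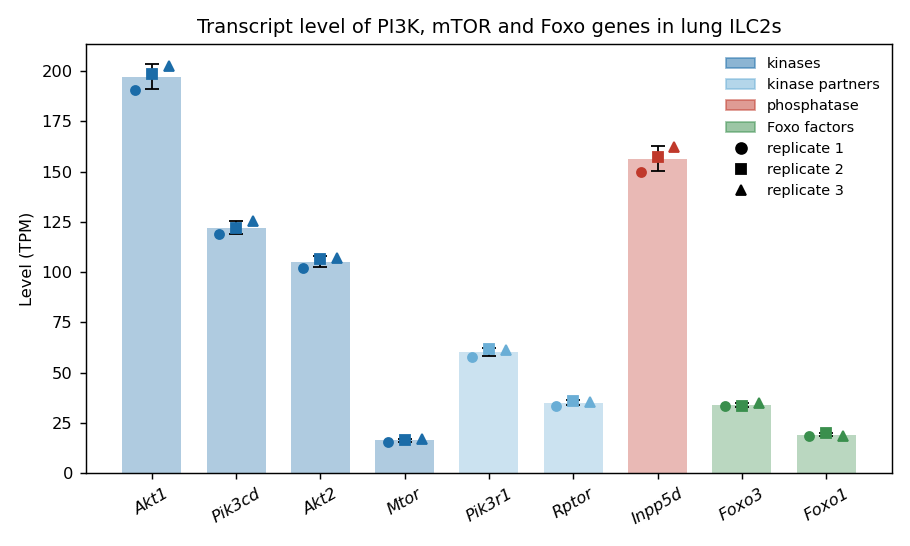
Level in TPM (linear axis from 0) of the 9 genes, grouped by role as kinases, kinase partners, phosphatase and Foxo factors. Bars are means of 3 libraries, error bars are SD and points are single libraries. Akt1 (mean 197 TPM) and Inpp5d (156 TPM) stand highest, and Foxo1 (19.15 TPM) and Mtor (16.3 TPM) lowest, with little spread between libraries.

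Mtor encodes the kinase of both mTOR complexes and was the lowest of the 9 genes. It stood at 15.51, 16.65 and 16.77 TPM in libraries 1, 2 and 3, a mean of 16.3 ± 0.695 TPM, with 55.8% of listed genes below it. Rptor encodes Raptor, the scaffold that brings substrates to mTORC1, and stood at 33.53, 35.87 and 35.3 TPM (mean 34.9 ± 1.22 TPM). Both genes were lowest in library 1. Mtor was lower than Rptor by a log2(TPM + 1) difference of -1.05 ± 0.019, so that Rptor was 2.07-fold higher on the TPM + 1 scale. Mtor (56717) lies on chromosome 4 from 148448582 to 148557685 and Rptor (74370) on chromosome 11 from 119602905 to 119899591.

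Of 9 mTOR complex genes, 8 reached 1 TPM in every library, beside 67.3% of all listed genes. Mapkap1, which encodes the mTORC2 subunit Sin1, was the highest at 48.7 ± 1.40 TPM, followed by Rptor. Rictor, the scaffold of mTORC2, was at 23.6 ± 1.29 TPM, and Rptor exceeded it by 0.55 ± 0.027 on the log2(TPM + 1) scale. Akt1s1, an inhibitory subunit of mTORC1, was at 20.1 ± 1.58 TPM. The inhibitory subunit gene Deptor was below 1 TPM in every library (0.647 ± 0.0907 TPM).

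Nearly all genes of the lists for mTORC1 inputs and substrates were detected, beside 67.3% of all listed genes. All 5 genes of the TSC complex and Rheb reached 1 TPM in every library, with the activating GTPase gene Rheb at 88.9 ± 3.40 TPM and the inhibitory Tsc2 and Tsc1 at 23.9 ± 0.792 and 11.8 ± 0.606 TPM. Of 21 genes of the amino acid branch 20 did so, led by the lysosomal Ragulator genes Lamtor1 (117 ± 2.66 TPM) and Lamtor2 (105.2 ± 5.9 TPM) and the GTPase gene Rragc (79.2 ± 1.26 TPM). Rragd was below 1 TPM in every library. All 8 substrate genes were detected, with the translation inhibitor Eif4ebp2 at 140 ± 1.78 TPM, the S6 kinase gene Rps6kb1 at 40.5 ± 1.14 TPM, Eif4ebp1 at 34.5 ± 2.8 TPM and Rps6kb2 at 30.3 ± 1.35 TPM. The median mean level was 18.2 TPM for mTOR complex genes and 11.9 TPM for the TSC complex and Rheb. It was 27.6 TPM for the amino acid branch and 27.5 TPM for the substrates. Each was above the 11.2 TPM of all listed genes but below the 28.2 TPM of genes that reached 1 TPM in every library.

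Foxo1 and Foxo3 encode forkhead transcription factors that Akt inactivates. Foxo1 stood at 18.62, 20.16 and 18.67 TPM in libraries 1, 2 and 3 (mean 19.15 ± 0.875 TPM), highest in library 2. Foxo3 stood at 33.42, 33.32 and 34.76 TPM (mean 33.8 ± 0.804 TPM), highest in library 3. Every Foxo3 value lay above every Foxo1 value, and Foxo1 was lower than Foxo3 by a log2(TPM + 1) difference of -0.79 ± 0.084, the least even of the 10 differences between libraries. Foxo4 lay between them at 24.2 ± 0.11 TPM, and no listed gene carried the symbol Foxo6. Foxo3 took 43.8 ± 0.882% of the summed TPM of the 3 genes, Foxo4 31.4 ± 0.323% and Foxo1 24.8 ± 1.04%. Foxo1 (56458) lies on chromosome 3 from 52268337 to 52350109 and Foxo3 (56484) on chromosome 10 from 42181845 to 42276695.

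Genes known as Foxo targets ranged from among the highest to near 0. Of 18 listed, 15 reached 1 TPM in every library, beside 67.3% of all listed genes. The median of the 18 was 22.2 TPM. The IL-7 receptor gene Il7r was at 659 ± 19.7 TPM, Ccng2, a cyclin of quiescent cells, at 142 ± 4.81 TPM, the cell cycle inhibitor Cdkn1b at 127 ± 4.66 TPM and the insulin receptor substrate Irs2 at 74.96 ± 8.57 TPM. Pck1 and Trim63, targets best known in liver and muscle, were below 1 TPM in every library. Klf2, S1pr1 and Ccr7, targets linked to lymphocyte egress and homing, were at 2.25 ± 0.275, 13.7 ± 0.445 and 6.15 ± 0.639 TPM. The 7 genes of 14-3-3 proteins, which bind phosphorylated Foxo, were all detected with a median of 353 TPM. They were led by Ywhaz (710.1 ± 5.52 TPM), Ywhah (369 ± 5.19 TPM), Ywhab (359 ± 6.91 TPM) and Ywhaq (353 ± 16.9 TPM).

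Upstream of PI3K, 9 of 11 adaptor, receptor and inhibitor genes reached 1 TPM in every library, beside 67.3% of all listed genes. The median mean level of the 11 was 6.81 TPM, below the 11.2 TPM of all listed genes. Icos, a costimulatory receptor that engages PI3K, was at 484 ± 7.94 TPM, whereas the related Cd28 was at 1.33 ± 0.241 TPM. Irs2, the adaptor Pik3ap1 (35.5 ± 0.338 TPM) and the PI3K inhibitor gene Pik3ip1 (25.5 ± 1.02 TPM) followed. Gab1 and Irs1 were below 1 TPM in every library. In the class II and III list, Pik3c3, the kinase of autophagy and endosomes, stood at 84.7 ± 1.99 TPM, its partner Pik3r4 at 20.7 ± 0.44 TPM and Pik3c2a at 7.36 ± 0.309 TPM, and Pik3c2b was below 1 TPM in every library. Over all lists, 98 of 109 distinct listed genes of the pathway were detected, or 89.9%, beside 67.3% of all listed genes. Without the 9 members the count was 89 of 100.

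**Figure D2:**
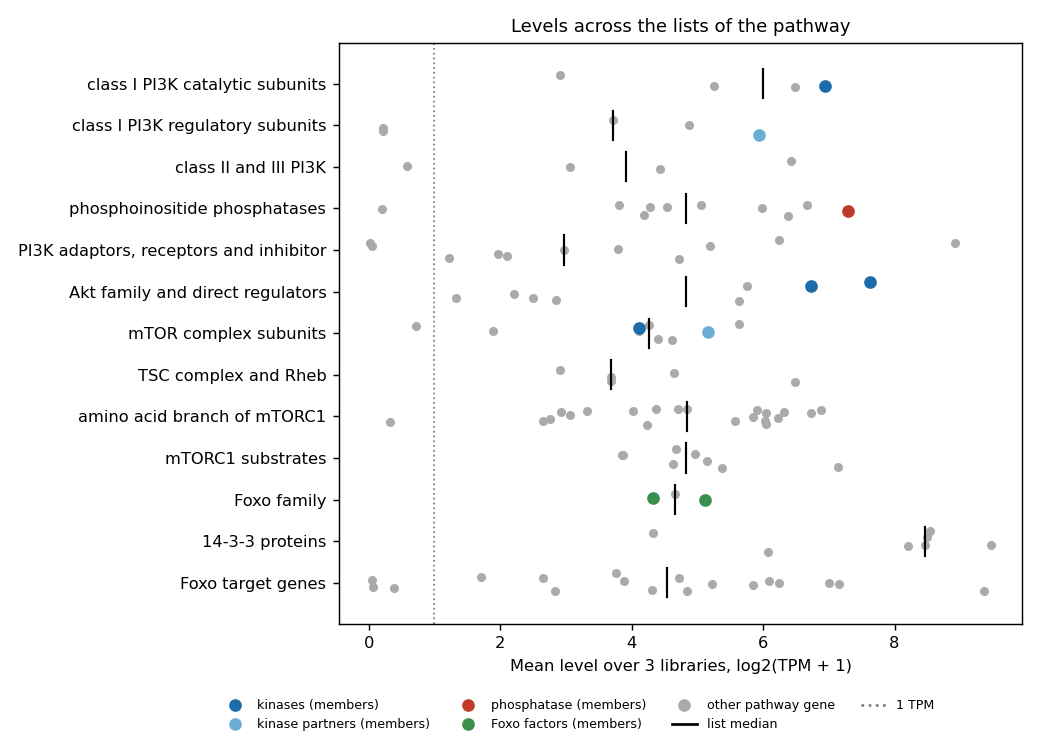
Mean level over 3 libraries as log2(TPM + 1) of each listed pathway gene, one line per list, with the 9 member genes coloured by role, other genes in grey, the list median as a black bar and 1 TPM as a dotted line. Pik3cd, Inpp5d and Akt1 stand at the top of their families, whereas Mtor (16.3 TPM) stands below the median of the mTOR complex list (18.2 TPM).

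The kinases were then compared with the phosphatase and the Foxo factors within each library, by subtracting mean log2(TPM + 1) values. The 4 kinases exceeded the 2 Foxo factors by 1.60, 1.62 and 1.66 in libraries 1, 2 and 3 (mean 1.63 ± 0.03, 3.09-fold on the TPM + 1 scale). They were lower than Inpp5d, by differences of -0.93, -0.94 and -0.96 (mean -0.94 ± 0.016), which puts Inpp5d 1.92-fold higher. Against Inpp5d and the Foxo factors together the kinases were higher by 0.77 ± 0.015. Inpp5d therefore lay above the kinase average and the Foxo factors below it, in 3 of 3 libraries. This comparison covers 1 phosphatase gene and 4 chosen kinases, not phosphatases or kinases as classes.

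These averages hid a split among the kinases, because Akt1 lay above Inpp5d in every library and Mtor below both Foxo factors. Without Mtor, the difference from Inpp5d was -0.20 and that from the Foxo factors 2.37, an alternative chosen after seeing the data. Each of the 10 differences, including those between single genes given above, had the same sign in 3 of 3 libraries and was many times its SD. An exact permutation test over sign flips, two-sided, gave p = 0.25 for each, the smallest it can give with 3 libraries, and Benjamini-Hochberg adjustment over the 10 left 0.25. Genes with levels that do not overlap give the same sign in each library by choice, so the shared sign is no measure of stability.

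**Figure D3:**
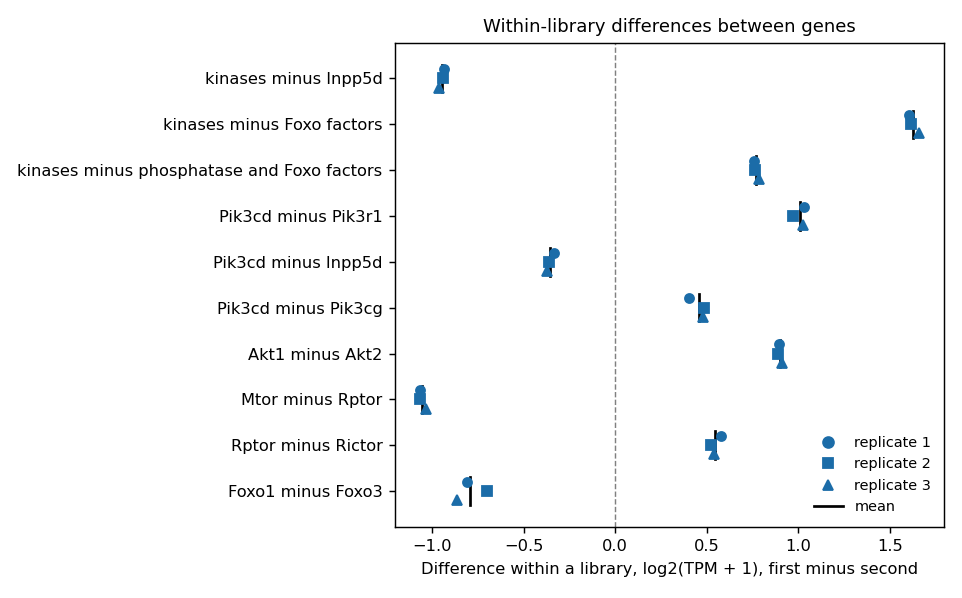
Within-library differences in log2(TPM + 1), first gene or group minus second, for the 10 comparisons. Points are libraries and black bars are means. Kinases lie 1.63 above the Foxo factors and 0.94 below Inpp5d (a difference of -0.94), and the points of each comparison lie close together on 1 side of 0.

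In order of mean level the genes ran Akt1, Inpp5d, Pik3cd, Akt2, Pik3r1, Rptor, Foxo3, Foxo1 and Mtor. Of the 8 pairs of neighbours, 7 had ranges over the libraries that did not overlap. The exception was Rptor and Foxo3, which differed by 0.04 ± 0.053 on the log2(TPM + 1) scale. Rptor was the higher in 3 of 3 libraries, but the mean difference was smaller than its SD, so their order is uncertain. The closest of the separated pairs was Pik3cd over Akt2, with a ratio of means of 1.16, followed by Foxo1 over Mtor with 1.17. Golm1 and Samhd1 were among the 3 listed genes other than the 9 that were most like Akt1 by Euclidean distance in log2(TPM + 1) over the 3 libraries (distances 0.0281 and 0.029). Those most like Mtor were Tef, Rap2a and Pramef8 (0.0181, 0.0249 and 0.025). With 3 libraries of 1 group such likeness is almost wholly a likeness of level.

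The order between genes depends on the transcript length by which reads were divided. From the deposited counts and FPKM, the length used was near 2562 bases for Akt1, 4855 bases for Inpp5d, 5503 bases for Foxo1 and 8272 bases for Mtor in library 1. Foxo1 had fewer estimated reads than Mtor in every library (988, 1056 and 975 for Foxo1, 1238, 1298 and 1217 for Mtor) yet a higher TPM, because its length was shorter. The single Foxo1 transcript in GENCODE M21 is 8665 bases long, and the longest Mtor transcript is 8564 bases. The place of Foxo1 above Mtor therefore rests on the authors' gene model, which the sources used here do not give. In addition, 7.78% of the exonic bases of Foxo1 overlap an antisense gene, Gm20402, and whether the libraries kept strand is not stated.

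The implied length of Mtor moved most among the 9 genes between libraries, at 8272, 8190 and 7644 bases in libraries 1, 2 and 3. Its highest length was 8.22% above its lowest, while the excess was at most 1.29% (Pik3cd) for the other 8 genes. Of the 8262 genes that averaged 10 TPM or more, 5.02% had an excess above 5%. Mtor thus had its lowest estimated read count but its highest TPM in library 3. Scaled only to library totals (CPM), Mtor was at 60.9 CPM in library 3 against 62.0 CPM in library 1, whereas in TPM it was at 16.77 against 15.51. A gene-level length of this kind is an average over transcripts weighted by their estimated abundance, and the deposited table holds no transcript values.

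**Figure D4:**
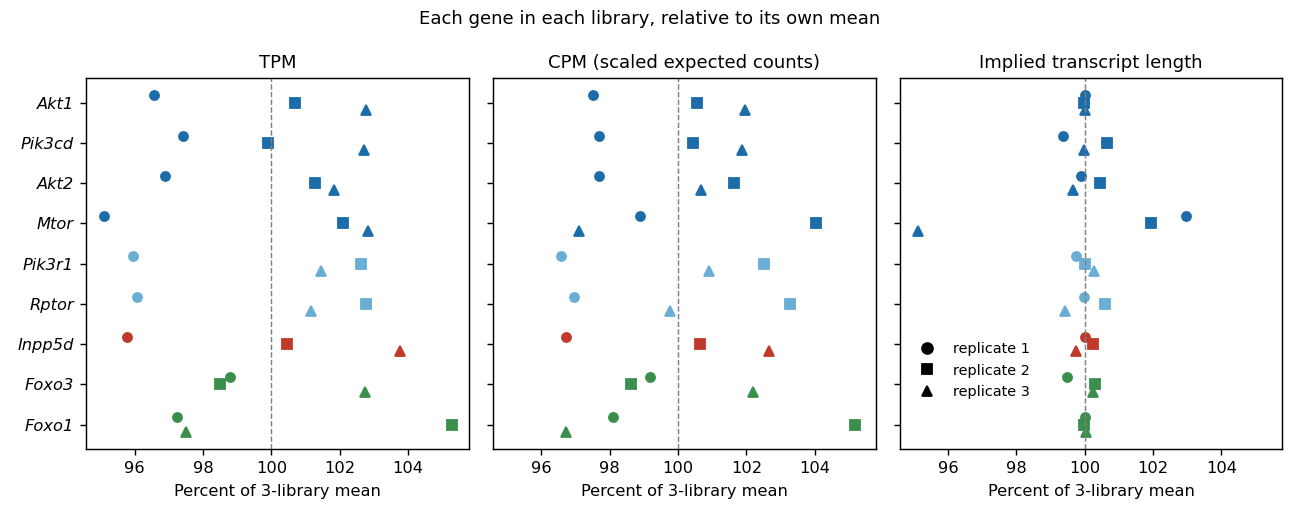
Each gene in each library as a percent of its own mean over the 3 libraries, for TPM, for CPM (expected counts scaled to library totals) and for the transcript length implied by the deposited values. Circles, squares and triangles are libraries 1, 2 and 3. Most genes sit lowest in library 1 on both expression scales, and in the length panel Mtor spreads most, with 8272 bases in library 1 and 7644 in library 3.

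The spread between libraries was small throughout. The SD was 2.38% of the mean for Foxo3 at the least and 4.57% for Foxo1 at the most, while counting error alone gives 2.12% and 3.15% for those genes. The median SD of log2(TPM + 1) was 0.049 for the 9 genes and 0.054 for all genes that averaged 10 TPM or more. Of the 9 genes, 8 had their lowest TPM in library 1, and Foxo3 had it in library 2. Among all genes that reached 1 TPM in every library, 43.9% were lowest in library 1. The TPM of library 1 over the mean of libraries 2 and 3 had a median of 0.949 for the 9 genes and 0.983 for those genes. By CPM, 6 of the 9 were lowest in library 1, beside 37.3% of those genes. Each of these differences is a few percent, and the 9 values come from the same 3 libraries.

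The libraries held 19948056, 19883728 and 19976129 estimated reads. All 13 ILC2 markers averaged 100 TPM or more, with Arg1, Id2 and Il1rl1 highest, and their summed level ran from 9726 to 9985 TPM. Of 42 listed markers of other cells, 17 reached 1 TPM in every library, beside 67.3% of all listed genes. The median of the 42 was 0.692 TPM. Macrophage and monocyte markers were the highest of these, with 7 of 8 listed genes detected, led by Chil3 (375 ± 74.7 TPM), Lyz2 (39.1 ± 6.98 TPM) and Ear2 (11.7 ± 2.44 TPM). C1qb was at 5.83 ± 1.21 TPM, Cd68 at 4.81 ± 1.02 TPM, C1qa at 3.99 ± 0.715 TPM and Csf1r at 1.72 ± 0.491 TPM. Adgre1 was below 1 TPM in every library (0.653 ± 0.221 TPM). The summed level of the macrophage and monocyte markers was 397, 388 and 543 TPM in libraries 1, 2 and 3. Chil3 alone made up 337.6, 326.62 and 461.15 TPM of these sums. All 8 listed genes had their highest TPM in library 3. Library 3 was also where 6 of the 9 members had their highest TPM and 4 of the 9 their highest CPM, beside 40% and 33% of all genes that reached 1 TPM in every library. The part of other cells in the members' levels was not tested. T cell, B cell, NK cell, neutrophil, mast cell, endothelial and fibroblast markers each summed to at most 12.8 TPM, and epithelial markers to 47.0 to 51.5 TPM. In a bulk library of sorted cells, fewer cells expressing a gene and less RNA per cell cannot be told apart.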

How the data were processed

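RNA was profiled in 3 libraries of ILC2s sorted from mouse lung. Bowtie2, RSEM 1.3.1 and GRCm38.p6 are listed in the submitters' processing notes, without settings. The authors deposited, per the file headers, expected counts, TPM summing to 1000000 per library, FPKM, and normalised read counts, a depth-scaled signal that was not used. Levels are TPM, or log2(TPM + 1), a scale on which ratios of low genes shrink. Detected means 1 TPM or more in each library. Implied length is the count divided by FPKM and total reads, and CPM is the expected count scaled to the library total. Within-library differences were tested by exact sign flips. The programs were tested on simulated data. Coordinates and start windows are from RefSeq for GRCm38.p6, where all 9 genes matched, and transcripts from GENCODE M21. Named genes are the members, genes of the 10 differences, each list's 4 highest and up to 3 (by alphabet) below 1 TPM throughout, and 3 markers per cell type. Inppl1, Phlpp1, Phlpp2, Sgk1, Sgk3, Cd28, Klf2, S1pr1, Ccr7, C1qb, Cd68, C1qa, Csf1r and Adgre1 were added after their values were seen. The members and lists were chosen with earlier results of these data known. Alternatives were a pseudocount of 0.1, FPKM, CPM, detection at 0.5 and 5 TPM, other kinase groupings and leaving out each library. Some fixed genes, 1 fixed difference and 1 planned grouping are not reported here. Counting error is the inverse square root of the mean count. Python 3.11.15, pandas 2.3.3 and numpy 2.4.6 were used.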

Additional observations from a re-analysis of the deposited data

How the results depend on the processing

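The 59 recomputed differences reported here, between genes or groups, kept their direction, and none could pass the test's threshold with 3 libraries (smallest p 0.25) or with 2 (0.5). Leaving out a library could not reverse a difference whose sign all 3 libraries shared. FPKM differs from TPM only by a factor per library, and no alternative changed the gene lengths. The kept direction is therefore no measure of stability. The difference of the kinases from Inpp5d moved to -0.50 when the mean TPM of the kinases was taken before the log and to -0.20 without Mtor. Kinases against Inpp5d and the Foxo factors together moved to 0.50 with the partner subunits among the kinases and to 1.52 without Mtor. With CPM in place of TPM, library 3 minus library 1 on the log2 scale kept its sign for 7 genes. It changed from 0.106 to -0.026 for Mtor and from 0.004 to -0.020 for Foxo1. Of 109 listed pathway genes, 98 were detected, 99 at a level of 0.5 TPM and 88 at 5 TPM. The count stayed at 98 when any 1 library was left out. The share of all listed genes was not computed at 0.5 or 5 TPM. No comparison between groups was possible because there is only 1 group, and the differences between genes were taken within each library. Each gene had at least 975 estimated reads in every library, and counting error at the mean count was at most 3.15% (Foxo1).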
